A study of Drosophila melanogaster with 54 samples.

Results

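The Turandot genes of the fruit fly (Drosophila melanogaster) encode small secreted stress peptides. The members described here are the 7 genes listed in the deposited expression table under the symbols TotA, TotB, TotC, TotF, TotM, TotX and TotZ, out of 13926 genes in the table. They were taken from the table by symbol. In whole males, 4 of the 7 (TotA, TotC, TotX and TotM) were measured above 1 TPM (a transcript abundance scaled by transcript length and by library) in all 54 libraries. TotB was near 0, and TotF and TotZ were listed at 0 in nearly every library.

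Turandot transcripts are made largely in the fat body, the fly counterpart of liver and adipose tissue, and the peptides are released into the haemolymph. They are induced by bacterial infection, heat, cold, desiccation, oxidative stress and injury, through the JAK-STAT pathway, a MAP kinase branch that runs through Mekk1, and the Imd pathway with its transcription factor Relish. The peptides have been reported to coat host tissues and shield them from the fly's own antimicrobial peptides, and they are often used as a readout of humoral stress.

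RNA was sequenced from whole males collected at 10 days of age, from 6 strains reared at 18, 25 and 29 °C, with 3 libraries in each of the 18 groups. In 5 strains the flies expressed FLucDM-GFP, a firefly luciferase mutated so that it is prone to misfold and fused to green fluorescent protein. It was directed mainly to the cytoplasm (Cyto, 1 copy), to the nucleus by a nuclear localisation signal (NLS, 1 copy or 2 copies) or to the mitochondria (Mito, 1 copy or 2 copies). The control, w1118, is isogenic and carries no FLucDM. The labels name neither the promoter that drives the transgene nor its insertion sites, nor the number of flies in a library. All 5 transgene strains were compared with the same 9 w1118 libraries, so those comparisons share their controls. A difference from w1118 is therefore a difference from 1 control strain. Each form at each copy number is likewise 1 strain. Compartment and copy number therefore cannot be told apart from other differences between those strains.

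TPM keep no read counts, so how many reads support a value is unknown. Between 11995 and 12158 genes reached 1 TPM in a library. The labelled sex fitted the markers. All 8 testis and accessory gland genes checked were above 1 TPM in every library and summed to between 3137 and 6050.0 TPM, whereas 7 egg-shell genes summed to 1.57 to 13.7 TPM. No library was left out of the main fit. In 3 libraries TotM stood more than 4 times above the median of its group, namely NLS 1 copy at 18 °C replicate 1 (131.5 TPM), Mito 1 copy at 18 °C replicate 2 (15.4 TPM) and Mito 1 copy at 29 °C replicate 2 (29.7 TPM), and several results are also given without them. Those libraries were picked for a measured value, so such values are descriptions. Because RNA came from whole flies, fewer cells of a type and less RNA per cell cannot be told apart.

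On the BDGP6 build, 4 members form a cluster on the plus strand of chromosome arm 3R that spans 7328 bp. In order they are TotA (FBgn0028396, 20871036 to 20871700), TotC (FBgn0044812, 20872988 to 20873580), TotB (FBgn0038838, 20873938 to 20874522) and TotZ (FBgn0044809, 20877736 to 20878363), each with 2 exons in the annotation. TotX (FBgn0044810, 20904917 to 20905518, minus strand, 1 exon) starts 26553 bp beyond TotZ. It lies inside an intron of Grik (20901956 to 20908263, plus strand), which encodes a kainate-type glutamate receptor subunit, and overlaps none of the 15 Grik exons. TotM (FBgn0031701, 5329857 to 5330464, plus strand) and TotF (FBgn0044811, 19911815 to 19912377, minus strand) are far apart on arm 2L. The neighbour of TotF is TotE (19912938 to 19913516), which the table lists under its older name Victoria. No source used here says how reads that fit more than 1 Turandot gene were counted, so reads may have been exchanged between close relatives such as TotA, TotB and TotC.

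**Figure D1:**
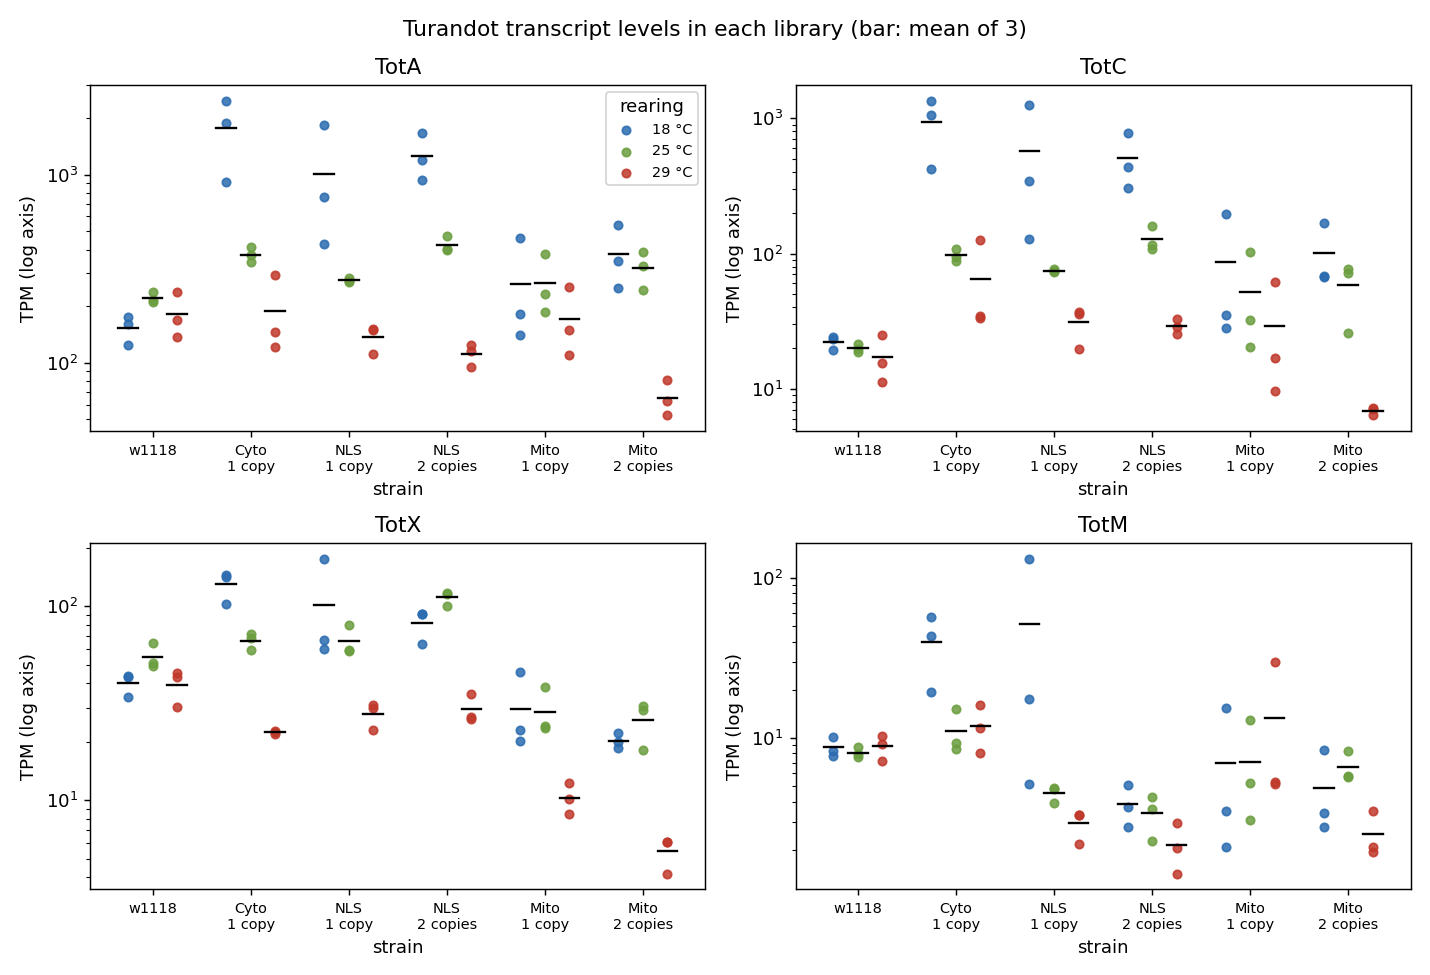
TPM of TotA, TotC, TotX and TotM in each library (points, log axis) by strain and rearing temperature, with a bar at the mean of 3 libraries. In w1118 the 3 temperatures lie close together, while in Cyto and both NLS strains TotA and TotC are far higher at 18 °C than at 29 °C.

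TotA was the most abundant member, with a median of 247 TPM over the 54 libraries and a range from 52.6 to 2478 TPM. Its mean level exceeded that of 97.2% of the genes in the table. TotC followed with a median of 49.3 TPM (6.34 to 1352), TotX with 36.8 TPM (4.19 to 175) and TotM with 5.50 TPM (1.42 to 132). Together the Turandot genes held between 0.00693% and 0.403% of all TPM in a library. TotB reached at most 1.95 TPM, was listed at 0 in 6 libraries and passed 1 TPM in 6. TotF was listed at 0 in 52 of 54 libraries (highest 0.160 TPM) and TotZ in 53 (highest 0.137 TPM). Victoria was listed at 0 in 21 libraries, including all 9 of w1118, and reached at most 1.99 TPM. Differences were tested for the 5 members (TotA, TotB, TotC, TotM and TotX) that reached 1 TPM in 3 libraries or more, among 12555 genes that met the same condition. TotF, TotZ and Victoria were not tested.

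In w1118 the 4 expressed members varied little with rearing temperature beside the transgene strains. TotA stood at 125, 175 and 161 TPM at 18 °C, 217, 237 and 211 TPM at 25 °C and 137, 237 and 169 TPM at 29 °C. The libraries of 18 and 29 °C overlapped, and those of 25 °C lay above all 3 of 18 °C. TotC was at 19.2, 24.0 and 23.4 TPM at 18 °C and 11.1, 25.0 and 15.4 TPM at 29 °C, with overlap. TotX was at 34.1, 43.3 and 43.5 TPM at 18 °C and 30.3, 45.1 and 43.1 TPM at 29 °C, again with overlap. TotM was the steadiest, between 7.17 and 10.3 TPM in all 9 libraries. None of the 5 tested members passed the test between 29 and 18 °C in w1118 (limma, Benjamini-Hochberg adjusted p = 0.589 to 0.981), where 56.1% of all genes passed. At an unadjusted p under 0.05 none passed either. The log2 differences, all on the scale of log2(TPM + 1), were 0.21 for TotA (95% interval -0.57 to 0.99), -0.42 for TotC (-1.70 to 0.87), -0.04 for TotX (-0.57 to 0.48) and 0.02 for TotM (-1.21 to 1.25). These intervals do not show that the levels were equal. In a fit to only the w1118 libraries TotA rose from 18 to 25 °C (0.54, adjusted p = 0.0471, against 0.321 in the main fit). TotX fell in that fit from 25 to 29 °C (-0.48, adjusted p = 0.0368, against 0.144). The other steps of these 4 genes did not pass in it.

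TotA, the founding member of the family and a stress-induced humoral peptide, was far higher in 3 transgene strains than in w1118 when flies were reared at 18 °C. There it stood at 1892, 921 and 2478 TPM in Cyto, 1831, 427 and 763 TPM in NLS 1 copy and 1664, 934 and 1195 TPM in NLS 2 copies. Every one of these 9 libraries lay above every w1118 library of any temperature. The rise over w1118 at 18 °C was 3.41 (log2) in Cyto (limma, adjusted p = 1.18e-09), a 10.7-fold difference, 2.46 in NLS 1 copy (adjusted p = 1.51e-06) and 3.01 in NLS 2 copies (adjusted p = 2.52e-08).

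The Mito strains had lower mean TotA levels at 18 °C than Cyto and both NLS strains. Mito 1 copy held 464, 183 and 141 TPM, where 1 library was within the w1118 range of that temperature and 2 lay above it, and the difference did not pass (0.59, adjusted p = 0.232, 95% interval -0.19 to 1.37). Mito 2 copies held 541, 347 and 250.3 TPM, all above w1118 at 18 °C, and TotA rose by 1.24 (adjusted p = 0.00939). Without Mito 2 copies replicate 1 of 18 °C that rise was 0.95 and did not pass (adjusted p = 0.0772).

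At 25 °C TotA was at 413, 374 and 342 TPM in Cyto, 284, 269 and 273 in NLS 1 copy and 474, 399 and 404 in NLS 2 copies. It was at 186, 233 and 379.7 TPM in Mito 1 copy and 327, 388 and 243 TPM in Mito 2 copies. All libraries of Cyto and both NLS strains, and all 3 of Mito 2 copies, lay above the 3 of w1118 at 25 °C, yet only NLS 2 copies passed against the shared estimate of spread (0.93, adjusted p = 0.0424). That call was lost without any 1 of the 3 NLS 2 copies or 3 w1118 libraries of 25 °C (log2 0.85 to 0.98, adjusted p = 0.0599 to 0.110). At 29 °C most transgene libraries lay within or below the w1118 range. TotA was at 147, 295 and 121 TPM in Cyto, 149, 111 and 151 in NLS 1 copy, 116, 94.7 and 124 in NLS 2 copies, 150.3, 254 and 111 in Mito 1 copy and 80.6, 52.6 and 62.5 in Mito 2 copies. The Mito 2 copies libraries were the lowest 3 for TotA of all 54, and TotA was 2.72-fold lower there than in w1118 (-1.44, adjusted p = 0.00293). The other 4 strains did not pass at 29 °C. All NLS 2 copies libraries there also lay below all of w1118 (-0.67, adjusted p = 0.148). That difference passed in a fit to only NLS 2 copies and w1118 (adjusted p = 0.00736).

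TotC, the neighbour of TotA in the cluster and likewise a stress-induced member, differed more. In w1118 all 9 libraries lay between 11.1 and 25.0 TPM. At 18 °C TotC stood at 1054, 419 and 1352 TPM in Cyto, 1256, 128 and 343 in NLS 1 copy and 779.8, 306 and 433 in NLS 2 copies, with no overlap with w1118. The rises were 5.19 in Cyto, 4.05 in NLS 1 copy and 4.35 in NLS 2 copies (log2, limma adjusted p = 8.41e-09, 1.59e-06 and 4.04e-07), or 36.5-, 16.6- and 20.4-fold. Among 12555 genes TotC ranked 10, 11 and 12 from the top in these comparisons. The value in NLS 1 copy depended on single libraries. It was 3.19 without replicate 1 and 4.83 without replicate 2, and passed in both (adjusted p = 0.000135 and 1.92e-07).

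TotC in the Mito strains at 18 °C was at 196, 35.3 and 28.1 TPM with 1 copy and 168, 68.2 and 66.5 TPM with 2 copies, each library above the 3 of w1118 at 18 °C. With 2 copies it rose by 2.00 (adjusted p = 0.0112), and by 1.56 without replicate 1, which did not pass (adjusted p = 0.0797). With 1 copy the difference was 1.36 and did not pass (adjusted p = 0.0868). It was 1.71 with the libraries of high TotM left out, and no test is read from that value. At 25 °C TotC was at 109, 87.8 and 93.8 TPM in Cyto, 76.8, 73.8 and 72.5 in NLS 1 copy and 159, 108 and 115 in NLS 2 copies, and rose in all 3 (2.22, 1.85 and 2.60). It was at 20.3, 32.0 and 103 TPM in Mito 1 copy and 72.3, 76.6 and 25.8 in Mito 2 copies, and neither passed in the main fit. At 29 °C TotC was at 33.1, 126 and 34.6 TPM in Cyto, 35.9, 19.6 and 37.2 in NLS 1 copy and 33.0, 25.3 and 28.6 in NLS 2 copies, against 11.1, 25.0 and 15.4 TPM in w1118. It rose in Cyto (1.63, adjusted p = 0.0259), but not without Cyto replicate 2 of 29 °C (1.01, adjusted p = 0.209), w1118 replicate 1 of 29 °C (1.38, adjusted p = 0.102) or w1118 replicate 3 of 29 °C (1.59, adjusted p = 0.0572). The Mito strains at 29 °C held 16.8, 61.4 and 9.61 TPM with 1 copy and 7.06, 7.18 and 6.34 TPM with 2, and neither passed in the main fit. In a fit to only Mito 2 copies and w1118, TotC passed at 25 °C (1.36, adjusted p = 0.00713, against 0.0906). It also passed there at 29 °C (-1.14, adjusted p = 0.0211, against 0.169). TotC in NLS 2 copies at 29 °C passed in the like fit (0.79, adjusted p = 0.0207, against 0.311). In these cases no library overlapped w1118 of that temperature.

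**Figure D2:**
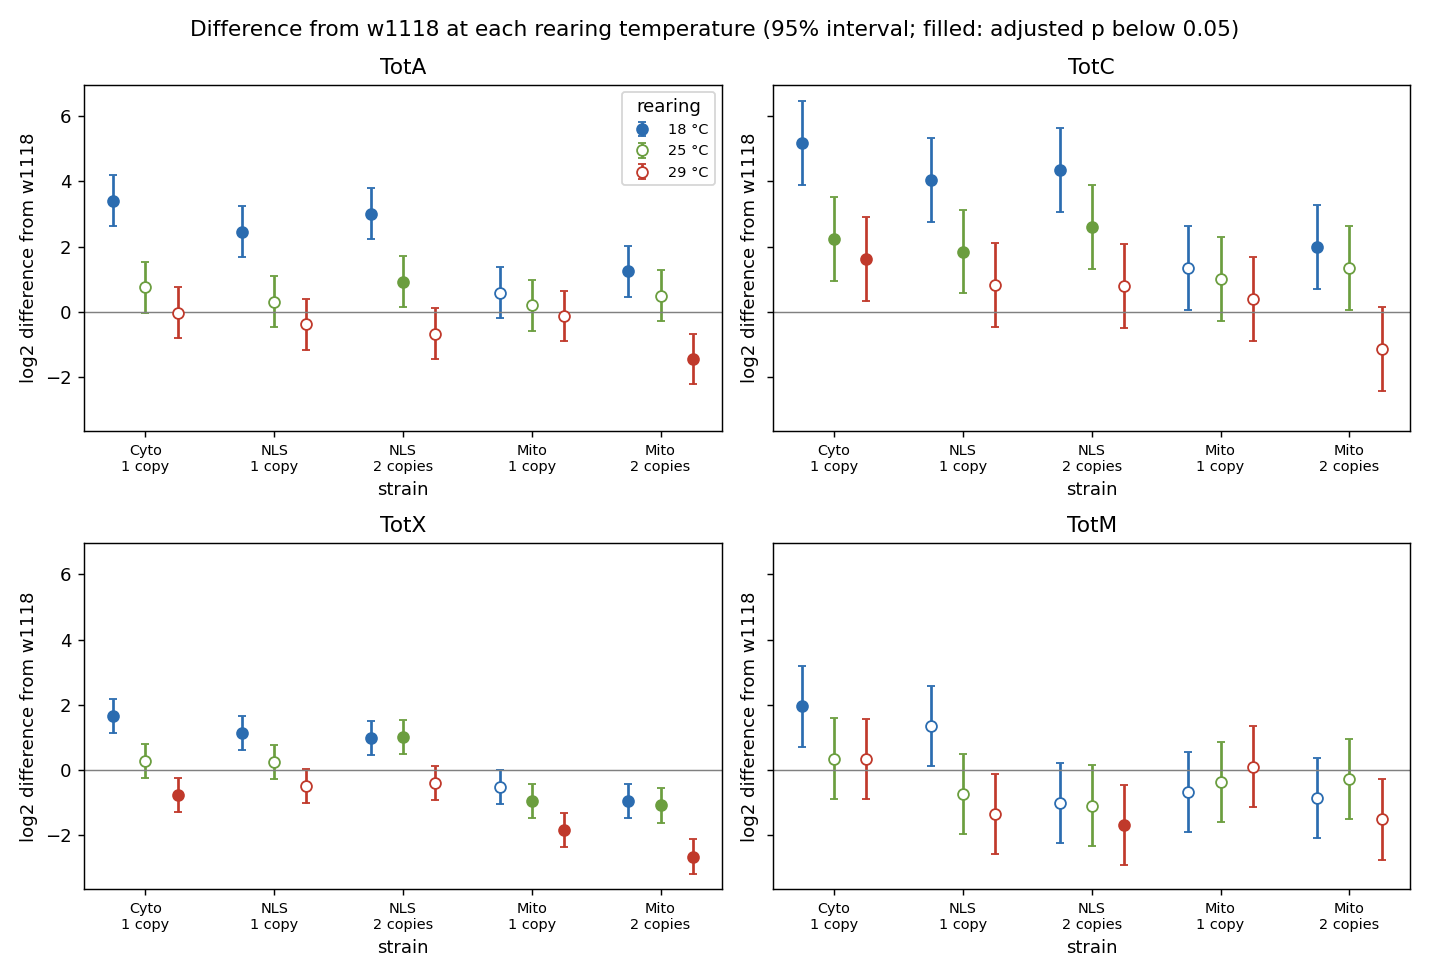
Log2 difference from w1118, on the log2(TPM + 1) scale, of TotA, TotC, TotX and TotM in the 5 transgene strains at 18, 25 and 29 °C, with 95% intervals from limma. Filled points passed at an adjusted p below 0.05. Differences of TotA and TotC are largest at 18 °C in Cyto and both NLS strains, and TotX is below w1118 in both Mito strains.

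The ratio of TotC to TotA TPM was 0.146, 0.0900 and 0.0927 in w1118 at 18, 25 and 29 °C (group means). At 18 °C it was 0.519 in Cyto, 0.479 in NLS 1 copy and 0.386 in NLS 2 copies, and 0.272 and 0.258 in Mito with 1 and 2 copies. At 25 °C it was 0.258 in Cyto, 0.270 in NLS 1 copy, 0.297 in NLS 2 copies, 0.172 in Mito 1 copy and 0.175 in Mito 2 copies. At 29 °C it was 0.312, 0.221 and 0.261 in Cyto, NLS 1 copy and NLS 2 copies, and 0.147 and 0.109 in the Mito strains. In Cyto and both NLS strains every library had a higher ratio than every w1118 library, with a lowest value of 0.176 against a highest w1118 value of 0.154. Any exchange of reads between the 2 genes in counting would move this ratio, and its part was not tested.

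**Figure D3:**
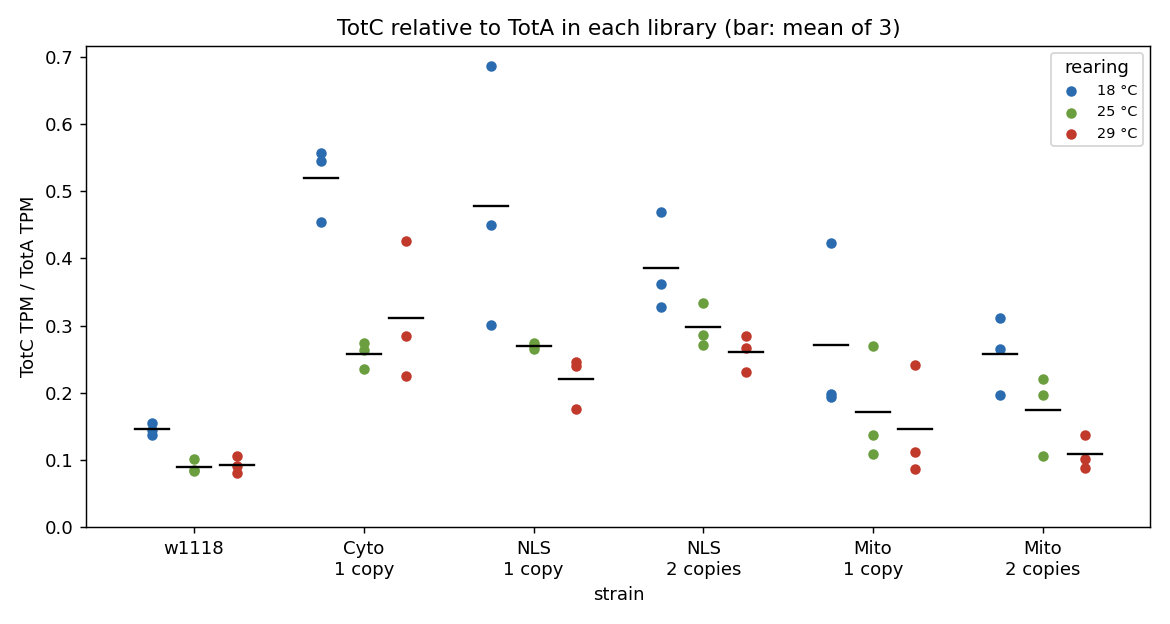
Ratio of TotC to TotA TPM in each library (points) by strain and rearing temperature, with a bar at the mean of 3 libraries, on a linear axis from 0. All Cyto and NLS libraries lie above all w1118 libraries, and the ratio is highest at 18 °C in each strain.

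TotX, a stress-responsive member outside the compact cluster, separated the Mito strains from the others. In w1118 it ran from 30.3 to 64.8 TPM. In Mito 1 copy it was at 45.8, 20.1 and 23.1 TPM at 18 °C, 23.5, 24.2 and 38.3 TPM at 25 °C and 10.2, 12.2 and 8.46 TPM at 29 °C. In Mito 2 copies it was at 22.3, 18.5 and 20.0 TPM at 18 °C, 29.2, 30.5 and 18.1 TPM at 25 °C and 6.09, 6.06 and 4.19 TPM at 29 °C. At each temperature all Mito 2 copies libraries lay below all w1118 libraries, and so did those of Mito 1 copy at 25 and 29 °C, whereas at 18 °C 1 Mito 1 copy library exceeded all 3 of w1118. At 29 °C TotX was 3.57-fold lower in Mito 1 copy (-1.83, adjusted p = 1.13e-07) and 6.26-fold lower in Mito 2 copies (-2.65, adjusted p = 3.02e-11). At 25 °C the falls were -0.94 and -1.08 (adjusted p = 0.00383 and 0.00094). At 18 °C Mito 2 copies fell (-0.95, adjusted p = 0.00305) and Mito 1 copy did not pass (-0.51, adjusted p = 0.114).

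In Cyto TotX was at 145, 103 and 142 TPM at 18 °C, 71.7, 68.4 and 59.4 TPM at 25 °C and 22.6, 22.0 and 22.5 TPM at 29 °C. It thus lay above all w1118 libraries at 18 °C (a rise of 1.66, adjusted p = 1.37e-06) and below all of them at 29 °C (-0.77, adjusted p = 0.00994). In NLS 1 copy it was at 175, 60.4 and 67.2 TPM at 18 °C, 59.1, 59.7 and 80.3 TPM at 25 °C and 29.8, 23.1 and 30.8 TPM at 29 °C, and rose at 18 °C alone (1.14, adjusted p = 0.000386). In NLS 2 copies it was at 91.2, 63.6 and 91.1 TPM at 18 °C, 116, 117 and 99.99 TPM at 25 °C and 26.4, 26.8 and 35.2 TPM at 29 °C. There it rose at 18 °C (0.99, adjusted p = 0.00173) and at 25 °C (1.01, adjusted p = 0.00129).

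The host gene of TotX ran differently with temperature in Cyto but not in every strain. In Cyto Grik was at 12.8 ± 0.423 TPM at 18 °C and 16.6 ± 0.787 TPM at 29 °C (SD, n = 3 each), and rose by 0.35 (log2, limma adjusted p = 2.69e-06), while TotX fell by 5.54-fold there (-2.47, adjusted p = 1.57e-10). In NLS 2 copies both had their highest mean at 25 °C and their lowest at 29 °C, Grik at 13.1, 16.6 and 11.1 TPM and TotX at 82.0, 111 and 29.4 TPM at 18, 25 and 29 °C. In w1118 both were likewise highest at 25 °C, Grik at 6.86, 9.80 and 8.40 TPM and TotX at 40.3, 55.0 and 39.5 TPM. At 18 °C both were higher in Cyto than in w1118, Grik by 0.81 (limma adjusted p = 2.17e-15). In NLS 1 copy Grik was at 14.5, 16.6 and 15.4 TPM at 18, 25 and 29 °C. It was at 9.96, 15.3 and 12.1 TPM in Mito 1 copy and 8.52, 11.3 and 8.94 TPM in Mito 2 copies. At each temperature both Mito strains thus had a Grik mean above w1118 and a TotX mean below it. The part of Grik reads in TotX was not tested. The library kit named in the labels does not mark strand, so reads from unspliced Grik transcripts over TotX cannot be told apart from TotX reads. The other protein-coding neighbours that were tested differed little between Cyto and w1118 at 18 °C. The ribosomal protein gene RpS30 and hdly were higher by 0.13 and 0.18 (adjusted p = 0.0253 and 0.00582), and KaiR1D, Ktl and CG31191 did not pass (0.10, 0.04 and -0.04).

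TotM, a member outside the 3R loci, followed the strains in another order. In Cyto it was at 43.5, 19.3 and 57.1 TPM at 18 °C, 9.26, 8.49 and 15.2 TPM at 25 °C and 8.08, 16.0 and 11.5 TPM at 29 °C, and at 18 °C all 3 libraries lay above w1118 (a rise of 1.95, adjusted p = 0.00824, and 1.64 with adjusted p = 0.0506 without Cyto replicate 3 of 18 °C). In NLS 1 copy it was at 132, 5.16 and 17.4 TPM at 18 °C, where replicate 1 was 7.54 times the group median and replicate 2 was below w1118. The difference there did not pass (1.35, adjusted p = 0.0625) and was 0.14 without replicate 1. That strain held 4.86, 4.77 and 3.93 TPM at 25 °C and 3.31, 2.16 and 3.29 TPM at 29 °C, all below w1118 without passing (-0.72 and -1.34, adjusted p = 0.348 and 0.0575).

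In NLS 2 copies TotM was at 5.11, 2.79 and 3.72 TPM at 18 °C, 3.60, 2.28 and 4.25 TPM at 25 °C and 2.04, 2.93 and 1.42 TPM at 29 °C, and all 9 libraries lay below all 9 of w1118. The difference did not pass at 18 °C (-1.02, adjusted p = 0.171) or 25 °C (-1.08, adjusted p = 0.14), but passed at both in a fit to only these 2 strains (adjusted p = 0.000449 and 0.000215). At 29 °C it was 3.19-fold lower (-1.67, adjusted p = 0.0191), and did not pass without NLS 2 copies replicate 3 (adjusted p = 0.0664) or w1118 replicate 3 (-1.57, adjusted p = 0.055) of that temperature. Mito 1 copy held 3.49, 15.4 and 2.08 TPM at 18 °C, 3.06, 5.24 and 13.0 TPM at 25 °C and 5.27, 29.7 and 5.17 TPM at 29 °C, with 1 high library in each group. Mito 2 copies held 8.43, 3.41 and 2.79 TPM at 18 °C, 5.80, 8.28 and 5.73 TPM at 25 °C and 2.08, 3.52 and 1.94 TPM at 29 °C. Neither Mito strain passed at any single temperature for TotM in the main fit. At 29 °C all Mito 2 copies libraries lay below all of w1118, with a difference of -1.51 (adjusted p = 0.0507). In a fit to only Mito 2 copies and w1118 it passed (adjusted p = 0.000134). The difference at 18 °C also passed there (-0.84, adjusted p = 0.0139, against 0.291), but not that at 25 °C. Without its library of high TotM, the TotM difference of Mito 1 copy at 18 °C was -1.38 in place of -0.67. No test is read from that value, since the library was left out for its TotM level.

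TotB, which lies between TotC and TotZ, stayed below 2 TPM where TotA and TotC rose. At 18 °C it was at 0.740, 0.587 and 1.499 TPM in w1118, 1.40, 0.907 and 0.613 TPM in Cyto and 1.53, 0.438 and 1.95 TPM in NLS 2 copies, with overlap in both cases. Its log2 difference in Cyto at 18 °C was 0.03 (95% interval -0.39 to 0.46). Over the temperatures it was lower than w1118 in both Mito strains (-0.47 and -0.43, adjusted p = 0.00104 and 0.00281), at levels at which the added 1 TPM understates any fold. All TotB values below are of this kind. TotB met the 1 TPM filter mainly through 18 °C libraries and through none of the Mito strains. Its falls with temperature and its lower Mito values are therefore partly set by that filter. Its calls, also where they enter a count, are descriptions.

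Averaged over the 3 temperatures, 16 of the 25 pairs of a tested member and a transgene strain passed against w1118, 10 upward and 6 downward. In Cyto 4 of 5 members passed, where 66.4% of all genes passed: TotA (log2 1.38 ± 0.22 SE, adjusted p = 8.01e-07), TotC (3.01 ± 0.37, 2.16e-09), TotM (0.89, 0.0251) and TotX (0.39, 0.0216), all upward. In NLS 1 copy 2 of 5 passed beside 68.8% of all genes, TotA (0.80, adjusted p = 0.00164) and TotC (2.24, adjusted p = 9.34e-07). In NLS 2 copies 4 of 5 passed beside 67.1%, with TotA (1.09), TotC (2.58) and TotX (0.53) upward and TotM downward (-1.26, adjusted p = 0.00179).

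In Mito 1 copy 3 of 5 passed beside 63.2% of all genes, TotC upward (0.92, adjusted p = 0.028) and TotB and TotX downward (TotX -1.10, adjusted p = 3.47e-08). In Mito 2 copies 3 of 5 passed beside 55.9%, all downward, with TotX at -1.56 (adjusted p = 6.39e-12) and TotM at -0.87 (adjusted p = 0.0323). Shares of 2 to 4 in 5 members lie near those of all genes and are no result about the family. The median log2 difference of the 5 members was 0.89 in Cyto, 0.31 in NLS 1 copy, 0.53 in NLS 2 copies, -0.30 in Mito 1 copy and -0.43 in Mito 2 copies, where that of all genes tested lay between -0.05 and -0.01.

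Some of these averaged calls rested on single libraries. TotC in Mito 1 copy did not pass without Mito 1 copy replicate 1 of 18 °C, replicate 3 of 25 °C or replicate 2 of 29 °C, or w1118 replicate 1 of 29 °C (log2 0.63 to 0.83, adjusted p = 0.0583 to 0.117). TotM in Cyto did not pass without Cyto replicate 3 of 18 °C, replicate 3 of 25 °C or replicate 2 of 29 °C (0.78 to 0.81, adjusted p = 0.0507 to 0.0583). TotX in Cyto did not pass without w1118 replicate 1 of 29 °C (0.33, adjusted p = 0.0591). TotM in Mito 2 copies did not pass without Mito 2 copies replicate 2 or 3 of 18 °C, replicate 3 of 25 °C or replicate 1 or 3 of 29 °C, or w1118 replicate 3 of 18 °C or of 29 °C (-0.85 to -0.79, adjusted p = 0.0511 to 0.0666). TotM did not pass in NLS 1 copy (-0.24, adjusted p = 0.562) or Mito 1 copy (-0.30, adjusted p = 0.461). Without the libraries of high TotM the values were -0.64 and -0.80, a direction that leaving them out favours, and no test is read from them.

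Counts at single temperatures were as follows. At 18 °C 14 of 25 pairs passed, 12 upward. They were 4 in Cyto (43.8% of all genes passed), 3 in NLS 1 copy (48.4%), 3 in NLS 2 copies (46.1%), 1 in Mito 1 copy (39.1%) and 3 in Mito 2 copies (38.1%). At 25 °C 7 pairs passed, 5 of them upward. They were 1 in Cyto (41.3%), 1 in NLS 1 copy (46.9%), 3 in NLS 2 copies (48.9%), 1 in Mito 1 copy (35.6%) and 1 in Mito 2 copies (37.5%). At 29 °C 9 pairs passed, 8 of them downward. They were 2 in Cyto (59.9%), 1 in NLS 1 copy (57.4%), 2 in NLS 2 copies (52.7%), 1 in Mito 1 copy (53.7%) and 3 in Mito 2 copies (34.1%). TotB gave 1 of these downward calls at 18 °C, in Mito 1 copy (-0.64, adjusted p = 0.0148, or -0.49 and 0.0635 without the libraries of high TotM), and 3 at 29 °C, in both NLS strains and Mito 2 copies. Each of these 4 TotB calls was lost without at least 1 single library, with an adjusted p of up to 0.141.

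**Figure D4:**
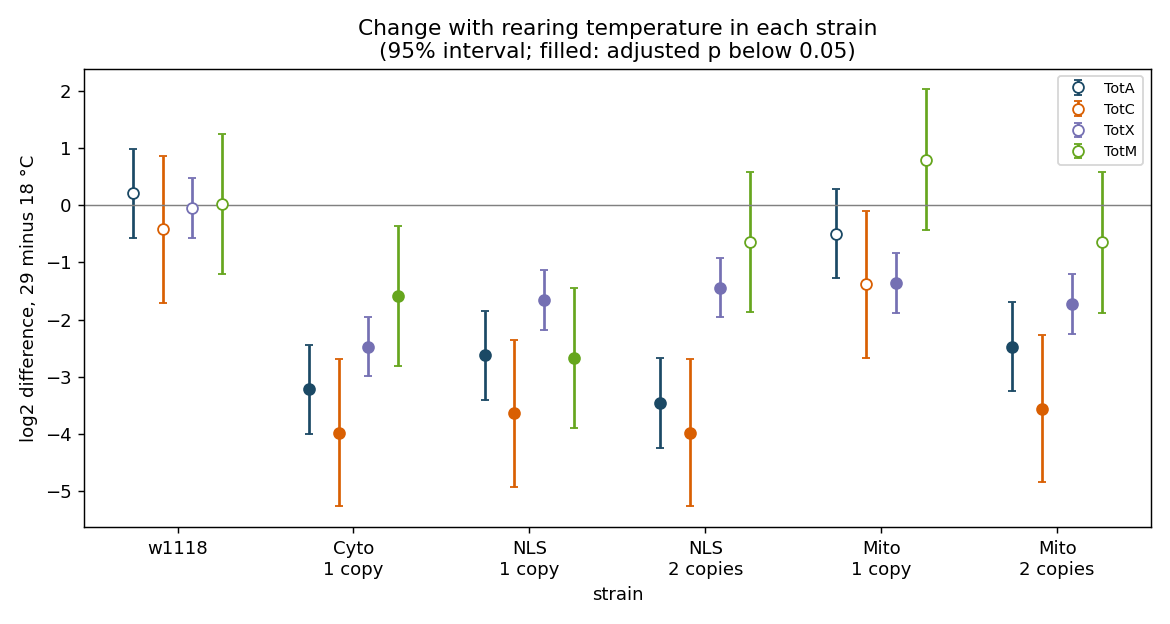
Log2 difference between flies reared at 29 and 18 °C, on the log2(TPM + 1) scale, of TotA, TotC, TotX and TotM in each strain, with 95% intervals from limma. Filled points passed at an adjusted p below 0.05. All 4 genes lie near 0 in w1118, and TotA, TotC and TotX lie well below 0 in Cyto, both NLS strains and Mito 2 copies.

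Of 30 pairs of a member and a strain, 18 passed between 29 and 18 °C and all were downward. The TotB calls among them are descriptions, since TotB met the filter mainly through 18 °C libraries. In Cyto all 5 tested members fell, where 49.8% of all genes passed. TotA fell 9.31-fold (-3.22, adjusted p = 4.21e-09), TotC 15.7-fold (-3.98, adjusted p = 1.65e-06), and TotX, TotM and TotB by less (-2.47, -1.59 and -0.58). TotC was -4.60 without Cyto replicate 2 of 29 °C (adjusted p = 6.63e-07). The TotM fall did not pass without Cyto replicate 1 or 3 of 18 °C or replicate 1 or 3 of 29 °C (-1.59 to -1.27, adjusted p = 0.0563 to 0.125), nor the TotB fall without replicate 1 of 18 °C or replicate 2 of 29 °C (-0.50 to -0.43, adjusted p = 0.0845 to 0.131).

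In NLS 1 copy 4 of 5 fell (52.5% of all genes passed), TotA by 6.16-fold, TotC by 12.4-fold, TotX by 3.15-fold and TotM by 6.36-fold (log2 -2.62, -3.64, -1.66 and -2.67). Without replicate 1 of 18 °C the TotC value was -2.78 (adjusted p = 0.000541) and the TotM value -1.46 (adjusted p = 0.0244), and without replicate 2 they were -4.42 (adjusted p = 6.42e-07) and -3.67 (adjusted p = 2.17e-06). In NLS 2 copies 4 of 5 fell (54.1%), with TotA at -3.46, TotC at -3.98, TotX at -1.44 and TotB at -0.95. TotM there was -0.64 and did not pass (adjusted p = 0.386).

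In Mito 2 copies 4 of 5 fell (54.1%), with TotA at -2.47 (adjusted p = 9.27e-07), TotC at -3.56, TotX at -1.73 and TotB at -0.51, the last lost without any 1 of its 6 libraries (-0.55 to -0.44, adjusted p = 0.0529 to 0.122). In Mito 1 copy only TotX fell (48.9% of all genes passed), by 2.57-fold (-1.36, adjusted p = 2.77e-05). TotA and TotC there were -0.50 (95% interval -1.28 to 0.28) and -1.38 (-2.67 to -0.09), adjusted p = 0.292 and 0.0693. With the libraries of high TotM left out, the TotC value in Mito 1 copy was -2.46. The library left out at 29 °C was also the highest of its group in TotC, so no test is read from that value. Among 12555 genes TotC ranked 3 from the bottom for 29 against 18 °C in Cyto, both NLS strains and Mito 2 copies, and TotA ranked 4, 9, 4 and 8.

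The difference was also read in its 2 steps. In Cyto TotA differed by -2.12 (95% interval -2.90 to -1.33) from 18 to 25 °C and -1.10 (-1.88 to -0.32) from 25 to 29 °C, and TotC by -3.11 (-4.40 to -1.83) and -0.86 (-2.15 to 0.42). In Mito 2 copies the lower step was -0.20 (-0.98 to 0.58) for TotA and the upper -2.27 (-3.05 to -1.49). For TotX the upper step held the larger negative value in each transgene strain. From 25 to 29 °C it differed by -1.53 in Cyto, -1.22 in NLS 1 copy, -1.89 in NLS 2 copies, -1.37 in Mito 1 copy and -2.04 in Mito 2 copies, and by -0.48 in w1118. From 18 to 25 °C the TotX differences ran from -0.95 in Cyto to 0.45 in NLS 2 copies. Apart from the w1118 steps given above, no test of the steps is reported.

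The change of the strain difference between 18 and 29 °C was tested itself. It passed in 14 of 25 pairs, all downward, and each value is the log2 difference of a strain from w1118 at 29 °C minus the same at 18 °C. In Cyto TotA (-3.43), TotC (-3.56) and TotX (-2.43) passed, 3 of 5 members beside 32.4% of all genes. In NLS 1 copy TotA (-2.84), TotC (-3.22), TotM (-2.69) and TotX (-1.61) passed, 4 of 5 beside 25.3%. In NLS 2 copies TotA (-3.67), TotC (-3.56) and TotX (-1.40) passed, 3 of 5 beside 19.9%. In Mito 1 copy 1 of 5, TotX (-1.32), passed beside 28%. In Mito 2 copies TotA (-2.68), TotC (-3.14) and TotX (-1.69) passed, 3 of 5 beside 15.5%. TotX was thus the 1 member for which the change passed in all 5 strains (limma, adjusted p = 4.52e-06 to 0.00619). TotC had the lowest value of all 12555 genes in Cyto and in NLS 1 copy.

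Single libraries mattered in NLS 1 copy and Cyto for these changes. The TotM change in NLS 1 copy was -1.48 without replicate 1 of 18 °C and did not pass (adjusted p = 0.143), and -3.69 without replicate 2 (adjusted p = 0.000954). TotC in NLS 1 copy was -2.36 without replicate 1 of 18 °C (adjusted p = 0.0483) and -4.00 without replicate 2 (adjusted p = 0.00136). TotC in Cyto was -4.18 without Cyto replicate 2 of 29 °C (adjusted p = 0.000819). TotA passed in Cyto, both NLS strains and Mito 2 copies without any 1 of the libraries that enter the comparison.

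Strains of different compartments were compared directly at equal copy number, averaged over temperatures. Each is 1 strain, so compartment cannot be told apart from other strain differences. Of 30 pairs of a member and a comparison, copy number included, 14 passed and all were downward as written here. Mito against Cyto at 1 copy gave 4 of 5 members lower in Mito, beside 26.4% of all genes: TotA (-1.16, adjusted p = 9.78e-05), TotC (-2.10, 2.64e-05), TotM (-1.19, 0.00955) and TotX (-1.48, 3.02e-10). Mito against NLS at 1 copy gave 3 of 5 lower in Mito, beside 31.1%: TotA (-0.58, adjusted p = 0.0438), TotC (-1.33, 0.00521) and TotX (-1.40, 2.09e-09). Mito against NLS at 2 copies gave 3 of 5 lower in Mito, beside 47.3%: TotA (-0.99, adjusted p = 0.000307), TotC (-1.84, 6.93e-05) and TotX (-2.09, 3.71e-14). TotX in the last comparison had the lowest value of all 12555 genes, and TotC the second lowest.

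NLS against Cyto at 1 copy gave 2 of 5 lower in NLS, beside 32.1%: TotA (-0.58, adjusted p = 0.0411) and TotM (-1.12, adjusted p = 0.0125). TotC and TotX did not pass there, with 95% intervals of -1.51 to -0.03 and -0.38 to 0.22 (adjusted p = 0.106 and 0.728). The TotA differences of NLS from Cyto and of Mito from NLS at 1 copy were near the threshold. The first did not pass without 11 single libraries (adjusted p up to 0.141 without NLS 1 copy replicate 2 of 18 °C), with quantile normalization (adjusted p = 0.0571), with median-ratio size factors (adjusted p = 0.0619) or with only the libraries of the strains compared (adjusted p = 0.0753). The second did not pass without 12 single libraries (adjusted p up to 0.16 without NLS 1 copy replicate 1 of 18 °C), without a filter on low values (adjusted p = 0.0517), without the libraries of high TotM (adjusted p = 0.139) or with only the strains compared (adjusted p = 0.108). The TotM difference of NLS from Cyto did not pass without NLS 1 copy replicate 2 of 18 °C (-0.79, adjusted p = 0.0567).

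Copies of the same form were then compared. With 2 NLS copies instead of 1, 1 of 5 members passed beside 28.1% of all genes, TotM (-1.02, adjusted p = 0.0254). It did not pass without NLS 1 copy replicate 1 of 18 °C (-0.62, adjusted p = 0.113), NLS 2 copies replicate 2 of 25 °C (-0.96, adjusted p = 0.0517) or NLS 2 copies replicate 3 of 29 °C (-0.96, adjusted p = 0.0507), nor in a fit to only these 2 strains (adjusted p = 0.0542). TotA, TotC and TotX differed by 0.29 (95% interval -0.16 to 0.74), 0.33 (-0.41 to 1.08) and 0.23 (-0.08 to 0.53) without passing. TotX differed by 0.39 without NLS 1 copy replicate 1 of 18 °C. That library was the highest of its group in TotX, so no test is read from that value. With 2 Mito copies instead of 1, 1 of 5 passed beside 42.2%, TotX (-0.46, adjusted p = 0.0118). TotA and TotC differed there by -0.12 (-0.57 to 0.33) and -0.18 (-0.92 to 0.56).

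Ordered by group mean, TotA was highest in Cyto at 18 °C (1763 ± 786 TPM, SD, n = 3), then NLS 2 copies (1265 ± 370.0) and NLS 1 copy (1007 ± 733) at 18 °C, and lowest in Mito 2 copies at 29 °C (65.2 ± 14.2). TotC had Cyto (941 ± 477), NLS 1 copy (576 ± 599) and NLS 2 copies (506 ± 245) at 18 °C at the top and Mito 2 copies at 29 °C at the bottom (6.86 ± 0.452). TotX was highest in Cyto at 18 °C (130.1 ± 23.4) and NLS 2 copies at 25 °C (111 ± 9.64), and lowest in Mito 2 copies at 29 °C (5.45 ± 1.09). TotM was highest in NLS 1 copy at 18 °C (51.4 ± 69.7), by 1 library, and lowest in NLS 2 copies at 29 °C (2.13 ± 0.762). Most neighbours in these orders were not separated. The libraries of adjacent groups overlapped in 16 of 17 steps for TotA, 14 for TotC, 14 for TotX and 17 for TotM.

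Turandot genes also varied more between libraries of the same group than most genes did. The within-group SD (log2), pooled over the 18 groups, was 0.51 for TotA, 0.84 for TotC and 0.80 for TotM. It was 0.34 for TotX and 0.27 for TotB, against a median of 0.10 over all genes tested. The spread was uneven between groups. In w1118 at 25 °C TotM was at 8.10 ± 0.620 TPM and TotC at 19.9 ± 1.47 TPM (SD, n = 3). In NLS 1 copy at 18 °C they were at 51.4 ± 69.7 and 576 ± 599 TPM. The library highest in TotA among the 3 of a group was also highest in TotC in 15 of 18 groups and in TotX in 13. TotM was highest in the same library as TotA in 9 groups and as TotC in 11. Across the 18 group means of log2(TPM + 1), TotA correlated with TotC at r = 0.958 and with TotX at 0.774, TotC with TotX at 0.748, and TotM with the other 4 at 0.412 to 0.547. These r values describe 18 means that share strains, temperatures and libraries.

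**Figure D5:**
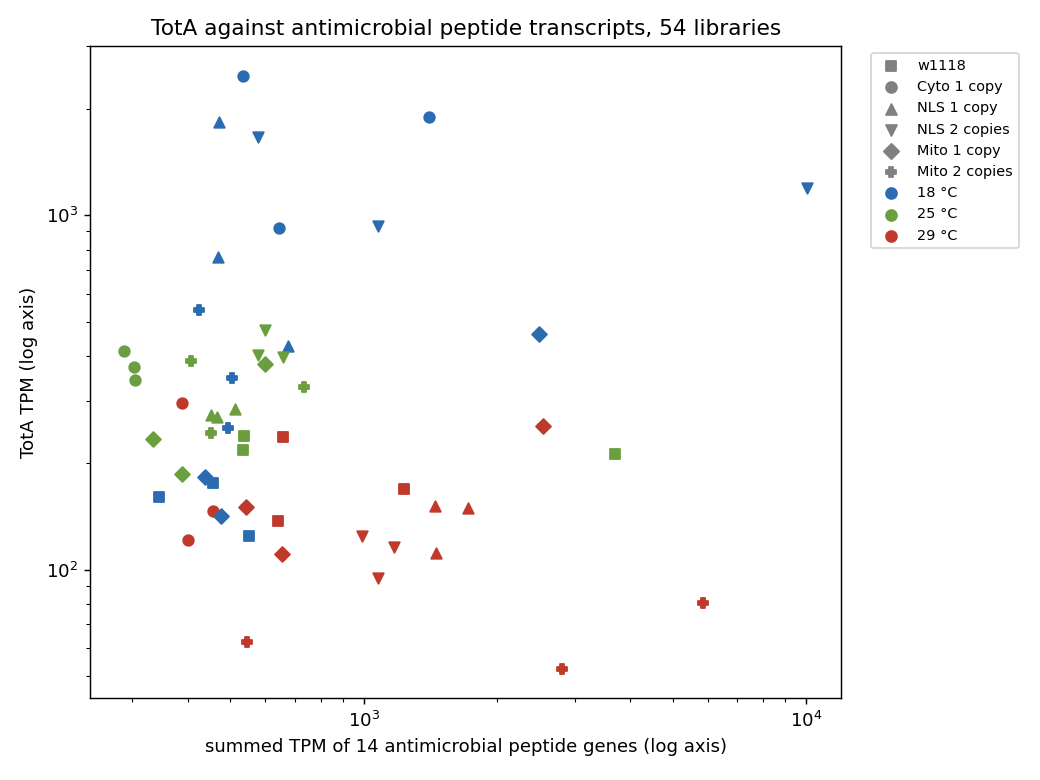
TotA TPM against the summed TPM of 14 antimicrobial peptide genes in each of the 54 libraries (both axes log), with the marker shape giving the strain and the colour the rearing temperature. The libraries with the highest antimicrobial sums, up to 10080 TPM, are spread over the range of TotA, and the library highest in TotA has a sum of 534 TPM.

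Antimicrobial peptide genes, the other main secreted output of the fat body in infection, were set beside TotA in each library. The summed TPM of 14 such genes ran from 288 to 10080 in single libraries. The library with the highest sum, NLS 2 copies at 18 °C replicate 3, had 1195 TPM of TotA, between its 2 fellow libraries. The next highest, Mito 2 copies at 29 °C replicate 1 with a sum of 5847 TPM, had 80.6 TPM of TotA, rank 52 of 54. The library highest in TotA, Cyto at 18 °C replicate 3, had rank 31 for the antimicrobial sum, and the one highest in TotM had rank 37. The library highest in TotA in its group was also highest in the antimicrobial sum in 5 of 18 groups, among them all 3 of Mito 1 copy. Mito 1 copy at 29 °C replicate 2, which stood out in TotM, had a sum of 2549 TPM (rank 5) against 543 and 654 TPM in the other libraries of its group. Against w1118, 0 of 14 antimicrobial genes rose and 4 fell in Cyto (median log2 -0.76, against -0.01 over all genes tested), 1 rose and 2 fell in NLS 1 copy, 5 rose and 1 fell in NLS 2 copies, 1 rose and 3 fell in Mito 1 copy, and 0 rose and 2 fell in Mito 2 copies. Of all genes 66.4% passed in Cyto, 68.8% in NLS 1 copy and 67.1% in NLS 2 copies. In Mito 1 copy 63.2% passed and in Mito 2 copies 55.9%, and in every strain the share of this list was smaller. The antibacterial peptide gene CecA2 was lower in Cyto (-2.49, adjusted p = 1.65e-06) and AttC was lower in all 5 strains.

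Genes of the pathways known to induce Turandot genes were counted in the same comparisons with w1118, in which 66.4% of all genes passed in Cyto, 68.8% in NLS 1 copy, 67.1% in NLS 2 copies, 63.2% in Mito 1 copy and 55.9% in Mito 2 copies. Counts near these shares are no result about a list. Of 8 tested JAK-STAT pathway genes, 1 rose and 3 fell in Cyto, 1 and 4 in NLS 1 copy, 0 and 5 in NLS 2 copies, 0 and 7 in Mito 1 copy and 0 and 6 in Mito 2 copies. The ligand upd1 was lower in all 5 strains (log2 -0.59 to -0.21), the phosphatase Ptp61F likewise (-0.27 to -0.09), and the transcription factor Stat92E was higher in Cyto (0.09, adjusted p = 0.00735) and lower in both Mito strains. Socs36E, a feedback inhibitor that the pathway induces, was lower in 4 strains, among them Cyto (-0.17, adjusted p = 0.00398) and Mito 2 copies (-0.24, adjusted p = 0.000126), and higher at 29 than at 18 °C in w1118 (0.54) and in Cyto (0.36).

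Of 5 tested immune genes that respond to JAK-STAT signalling, 4 rose and none fell in Cyto and in both NLS strains, and 2 rose and 1 fell in both Mito strains, beside 55.9 to 68.8% of all genes. Their median log2 differences were 0.21, 0.13 and 0.35 in Cyto, NLS 1 copy and NLS 2 copies, and 0.13 and 0.07 in Mito with 1 and 2 copies. The virus-induced gene vir-1 rose in all 5 strains (0.09 to 0.35) and the thioester protein gene Tep2 in 4 (0.27 in Cyto, adjusted p = 1.81e-07). Tep4 rose in Cyto (0.12) and fell in Mito 2 copies (-0.30). In the NLS strains Tep4 did not pass (adjusted p = 0.455 and 0.472).

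In the MAP kinase stress pathway, 8 of 12 genes rose and 1 fell in Cyto (66.4% of all genes passed), 6 and 2 in NLS 1 copy, 6 and 1 in NLS 2 copies, 5 and 3 in Mito 1 copy, and 2 and 3 in Mito 2 copies. Among them were puc, a phosphatase induced by JNK signalling (0.32 in Cyto, 0.11 in Mito 2 copies), the kinase Mkk4 (0.24 in Cyto) and p38b (0.23 in Cyto). Of 13 Imd pathway genes, 4 rose and 2 fell in Cyto (again beside 66.4%), 3 and 2 in NLS 1 copy, 4 and 4 in NLS 2 copies, 2 and 4 in Mito 1 copy, and 2 and 7 in Mito 2 copies. Rel, which encodes Relish, rose in all 5 strains (0.17 to 0.44, highest in Cyto with adjusted p = 5.65e-12). The pathway inhibitors pirk and PGRP-LB were higher at 29 than at 18 °C in w1118 (2.01 and 1.10) and in Cyto (2.41 and 1.21). The part of these pathways in the Turandot differences was not tested.

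Of 13 heat-shock genes, 2 rose and 8 fell in Cyto, 1 and 9 in NLS 1 copy, 2 and 7 in NLS 2 copies, 2 and 8 in Mito 1 copy and 2 and 7 in Mito 2 copies, beside 55.9 to 68.8% of all genes. The small heat-shock gene Hsp22 was higher at 29 than at 18 °C in Cyto (5.05, limma adjusted p = 9.3e-21).

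Markers of the fat body, the main source of Turandot peptides, were counted against the same shares of all genes (55.9 to 68.8%). Of 8 tested, 6 rose and 1 fell in Cyto, 7 rose and 0 fell in NLS 1 copy, 8 and 0 in NLS 2 copies, and 5 and 0 in each Mito strain, with medians of 0.41, 0.38, 0.40, 0.19 and 0.22 (log2). The Mito counts are near the share of all genes. The lipoprotein gene apolpp rose by 0.62 in Cyto and the lipid droplet gene Lsd-1 by 0.63. At 18 °C the summed level of all 10 fat body genes was 862 to 912 TPM in w1118 and 1123 to 1322 TPM in Cyto. At 29 °C it was 860.0 to 921 TPM in w1118 and 1372 to 1558 TPM in Cyto. In NLS 1 copy it was 1198 to 1334 TPM at 18 °C and 1173 to 1297 TPM at 29 °C. NLS 2 copies held 1316 to 1713 and 1205 to 1417 TPM. Mito 1 copy held 1021 to 1248 and 1251 to 1401 TPM, and Mito 2 copies 1017 to 1093 and 1129 to 1231 TPM. No marker of the list was at 0 in all libraries. Blood cell markers rose in 6 of 8 in Cyto, with NimC1 at 1.81, and fell in none. They rose in 2 and fell in 3 in NLS 1 copy, 3 and 4 in NLS 2 copies, 3 and 0 in Mito 1 copy, and 3 and 2 in Mito 2 copies, and their sum ran from 107 to 177 TPM over all libraries. Of 5 Malpighian tubule markers 1 to 3 rose and 1 or 2 fell in each strain. Of 8 testis and accessory gland genes 0 rose and 8 fell in Cyto, 1 and 4 in NLS 1 copy, 0 and 3 in NLS 2 copies, 0 and 6 in Mito 1 copy and 1 and 3 in Mito 2 copies. Of 2 tested egg-shell genes 1 fell in each strain. The part of these tissues in the Turandot differences was not tested.

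The genes outside the family whose group means were most like a member's, over 18 groups and 5696 candidates, were ranked by Pearson's r. For TotA the leading 3 were Gbs-76A, a glycogen-binding phosphatase subunit (r = 0.861), the ion cotransporter NKCC (0.857) and the complex I subunit ND-75 (0.854). ND-75 had a mean of 346 TPM in Cyto at 18 °C and 276 TPM in w1118. For TotC they were Mdh1 (0.877), AMPKalpha (0.877) and Scamp (0.869), and Mdh1, a malate dehydrogenase, had a mean of 628 TPM in Cyto at 18 °C and 503 TPM in w1118. For TotX they were Ac76E, Sc2 and egh (0.828 to 0.853), for TotM z, Nf-YC and Pal1 (0.758 to 0.779), and for TotB CAH1, Sp1 and Shroom (0.812 to 0.831). With so many candidates, correlations of this size over 18 means are a description only.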

How the data were processed

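Per the labels' protocols, whole-fly RNA came from a TRIzol extraction and went into a TruSeq RNA v2 kit. The authors deposited 1 table of TPM for 54 libraries. The genome builds were dm6 and BDGP6, per the submitters' processing notes. For the aligner and counter, and for reads shared between genes, the method is not given in the sources used here. TPM keep no read counts, so no counting interval was computed. Positions were taken from a BDGP6 annotation by gene symbol.

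Genes that reached 1 TPM in 3 libraries or more were kept (12555 of 13926). limma 3.58.1 (R 4.3.3) fitted log2(TPM + 1) with 1 mean per group of strain and temperature over the 54 libraries (moderated two-sided test with intensity trend, 36 residual degrees of freedom), with Benjamini-Hochberg adjustment over all genes within each comparison and a threshold of 0.05. The pseudocount of 1 TPM understates folds of genes with few TPM. The fit was tested on simulated data with known changes. Named genes are all 7 members, the 3 genes most correlated with each tested member, and from each list the 3 with the smallest adjusted p over the 5 strain comparisons and the 2 with the smallest for 29 against 18 °C in w1118, of which some are printed; neighbours of the cluster were named after their values were seen. The members and lists were chosen with earlier results of these data known. Nothing in the labels says that numbered replicates are separate cultures, so the p-values reflect only how these libraries vary, which may be technical. Alternatives were a pseudocount of 0.1, no filter, quantile normalization, median-ratio size factors, a replicate block, a fit to only the strains compared, each library dropped singly and, chosen after seeing the data, leaving out the 3 libraries of high TotM together.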

Additional observations from a re-analysis of the deposited data

Results flagged for a closer look

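In 14 cases a member's difference from w1118 changed between 18 and 29 °C by a test of that change itself (limma on log2(TPM + 1), Benjamini-Hochberg adjusted over 12555 genes). The values are the strain difference at 29 °C minus that at 18 °C, so the same contrast is compared between temperatures, and all 5 strains share the w1118 libraries. For TotA the change amounted in Cyto to -3.43 (adjusted p = 1.03e-05), -2.84 in NLS 1 copy (0.000203), -3.67 in NLS 2 copies (2.56e-06) and -2.68 in Mito 2 copies (0.000343). For TotC the values were, in Cyto, -3.56 (with an adjusted p of 0.00281), -3.22 in NLS 1 copy (0.00721), -3.56 in NLS 2 copies (0.00371) and -3.14 in Mito 2 copies (0.012). TotX gave -2.43 in Cyto (with an adjusted p of 4.52e-06), -1.61 in NLS 1 copy (0.00123), -1.40 in NLS 2 copies (0.00525), -1.32 in Mito 1 copy (0.00619) and -1.69 in Mito 2 copies (0.000773). For TotM it passed in NLS 1 copy alone (-2.69, adjusted p = 0.0182), and without replicate 1 of 18 °C it was -1.48 and did not pass (adjusted p = 0.143). In w1118 itself none of these 4 genes passed between 29 and 18 °C.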

How the results depend on the processing

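The counts of passing pairs kept within 1.5 times of the reported 16 (strains against w1118), 18 (29 against 18 °C), 14 (between transgene strains) and 14 (change of the strain difference) under each alternative run. Leaving out each of the 54 libraries in turn gave 14 to 18, 16 to 20, 12 to 15 and 14 to 15. No value that passed changed direction. In 0 of 33 pairs of groups did same-numbered libraries deviate together by the rule used (r above 0.1 for every number). With 3 libraries in a group, that rule cannot show that same-numbered libraries share nothing. A limma fit with the replicate block gave 16, 19, 15 and 15 calls and lost none. It added 3, all of TotB, such as NLS 1 copy between 29 and 18 °C (adjusted p = 0.0376, against 0.0545). With only the libraries of the strains compared, TotC in Mito 2 copies against w1118 passed (adjusted p = 0.00612, against 0.0848), as did the change of the TotM difference in Cyto (-1.61, adjusted p = 0.00998, against 0.146). TotX in NLS 1 copy against w1118 passed with quantile normalization (adjusted p = 0.0229) and median-ratio size factors (0.0341), against 0.0652. Leaving out the 3 libraries of high TotM together was chosen after seeing the data. The TotC difference of NLS 1 copy from Cyto was then -1.06, against -0.77. The NLS 1 copy library left out was also the highest of its group in TotC, so no test is read from that value. Depth is unknown, which limits what can be said of TotB, TotF and TotZ.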
